A study of Mus musculus with 54 samples.

Results

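Endstage prostate tumours of castrated DKO mice were compared with endstage prostate tumours of intact DKO mice, which were chosen by the labels for genotype, age and treatment. The comparison used 7 of the 54 libraries of the series, 4 from castrated (Cx) and 3 from intact animals, each from a different mouse. The castrated DKO mice lost their testes at 12 weeks and were sampled at endstage at 39, 99, 84 and 50 weeks, which were replicates 1 to 4. The intact DKO mice reached endstage at 37, 46 and 35 weeks, which were replicates 1 to 3. Their library names end in PT, DP and AP.DP, in that order, and the names of the castrated DKO libraries carry no such ending. Whether both groups were sampled from the same part of the prostate could not be checked. Mean age was 68.0 ± 28.2 weeks in castrated mice and 39.3 ± 5.86 weeks in intact mice (SD, n = 4 and 3), and an exact two-sided permutation test gave p = 0.114, where 0.0571 was the smallest p that this design allows. The labels give DKO without its alleles, and both groups carry the same genotype label. In published models with this name, Rb1 is among the genes lost from prostate epithelium, through a Cre driven by a probasin promoter. The other endstage genotypes used below, DKO_EE and DKO_EP, are described as DKO with deletions of Ezh2, and the labels do not explain EE and EP. Endstage DKO_EE mice were 35 to 59 weeks old in the castrated group and 28 to 42 in the intact group. Endstage DKO_EP mice were 34 to 37 weeks old in the castrated group and 39 to 52 in the intact group. Some intact endstage mice gave more than 1 piece, with 12 libraries from 8 mice in DKO_EE and 5 from 3 in DKO_EP. The fit across all 11 groups also held intact mice of these 3 genotypes at 12 weeks. It further held castrated TKO mice of 15 to 19 weeks, given vehicle or CPI1688. The p-values measure the spread between single animals, with 1 library per animal in the DKO groups.

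Prostate luminal cells depend on testosterone, and castration removes most of it. Tumours that lose Rb1 can grow without this signal, and some of them take on a neuroendocrine state with factors such as Foxa2 and Insm1, with chromogranin A and synaptophysin as secretory markers. Other castration-resistant tumours keep epithelial keratins, or take on basal or squamous features that are marked by Krt5 and Trp63.

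Depth over the 16772 genes was 5024409 to 6336499 reads in the 4 castrated libraries, and it was 7634326 to 7815568 in the 3 intact ones. Values are log2 of a normalized read count plus 1, so a value of 0 means no read. Of all genes, 396 did not overlap between the 22 castrated and the 32 intact libraries of the whole series, across every genotype and age. They were set aside, since the labels do not say whether castrated and intact libraries were handled apart. Rmrp, the RNA of a mitochondrial RNA processing ribonuclease, was 1 of them and averaged 6.73 ± 0.26 in castrated and 13.56 ± 0.18 in intact DKO tumours (SD, n = 4 and 3). Handling and castration cannot be told apart for the remaining genes either. All 7 libraries carried an epithelial signal: Epcam lay between 12.14 and 12.95 in castrated and between 12.48 and 12.62 in intact tumours, and Krt8 lay between 12.19 and 13.54 in castrated and between 13.00 and 13.69 in intact tumours. The secreted prostate proteins Pbsn and Msmb were at 0 in all 7. Bulk RNA cannot tell fewer cells of a type from less RNA per cell.

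Among the 16376 genes that were not set aside, 1038 were higher in castrated tumours (6.34%) and 907 were lower (5.54%), by limma across all groups at a Benjamini-Hochberg adjusted p under 0.05. A gene past this threshold is referred to as called. Of the called genes, 589 were higher and 489 were lower by more than 2-fold. The castrated and intact libraries did not overlap for 1711 of the called genes and for 3370 of all genes tested (20.6%). A fit with the 7 libraries alone called 373 genes higher and 256 lower, and it shared 602 calls with the fit across all groups. Without the 99-week castrated animal, whose tumour stood apart, the fit across all groups called 925 higher and 808 lower. The median log2 difference over all genes tested was -0.01.

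**Figure D1:**
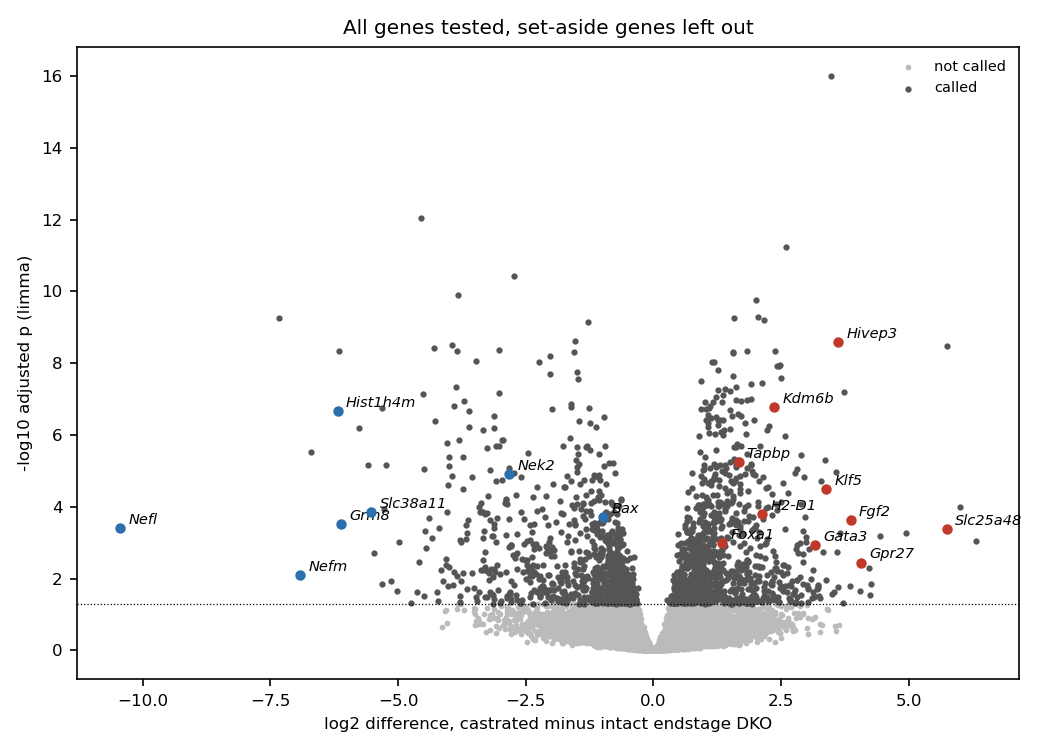
The log2 difference, castrated minus intact endstage DKO, is plotted against the adjusted p on a -log10 axis for each gene not set aside, with called genes in dark grey and the dotted line at the threshold of 0.05. Nefl lies farthest to the left at -10.44, Gata3 lies at 3.17, and called genes stand on both sides in similar numbers, 1038 higher and 907 lower.

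The neuroendocrine program was present in both groups, with 1 exception among the castrated animals. Chga, the secretory granule protein chromogranin A, had values of 10.14, 3.59, 10.51 and 10.48 in the castrated tumours of 39, 99, 84 and 50 weeks, against 10.31, 10.43 and 11.39 in the intact tumours of 37, 46 and 35 weeks. Insm1, a zinc-finger factor of neuroendocrine cells, read 10.29, 1.25, 10.93 and 10.68 in castrated and 9.31, 9.93 and 10.12 in intact tumours. The tumour of the 99-week castrated animal was the low one for both genes, while the other 3 castrated tumours lay above the intact ones for Insm1 and overlapped them for Chga. Syp, a synaptic vesicle protein, read 10.12, 2.36, 10.27 and 9.83 in castrated and 9.11, 9.39 and 10.49 in intact tumours. Averaged over the 38 neuroendocrine genes tested, the level was 8.21, 2.45, 8.26 and 8.37 in castrated tumours and 8.02, 7.76 and 7.92 in intact tumours. None of the 38 was called in either direction. The median difference of the list was -1.51, without the 99-week animal it was 0.25, and with age as a covariate it was 0.71.

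Basal and squamous genes were high in the same 99-week tumour. Krt5, the basal keratin, had 3.62, 14.23, 0 and 1.08 in castrated tumours, against 6.87, 4.68 and 0 in intact tumours. Trp63, the basal lineage factor, had 5.07, 11.31, 0 and 2.11 in castrated tumours, against 4.01, 4.05 and 1.88 in intact tumours. The remaining castrated tumours overlapped the intact ones for both genes. Krt13, a keratin of stratified epithelium, was at 11.74 in the 99-week tumour, at 0 in the other 3 castrated tumours and at 1.88, 1.50 and 0 in intact tumours. Across all genes, 315 were more than 4 log2 units above each of the other 6 libraries in the 99-week tumour, and 328 were as far below. No other library had more than 10 genes this far above or below the rest. Markers of neighbouring tissues were higher there as well: the 4 uroplakins of bladder averaged 8.84 in the 99-week tumour, 1.49 to 1.81 in the other castrated tumours and 0.74 to 2.50 in intact tumours. The 3 seminal vesicle proteins averaged 6.86 in that tumour, were at 0 in the other castrated tumours and averaged 2.79 to 4.77 in intact tumours. The part of tissue carried along in dissection was not tested. None of 26 basal and squamous genes was called. The median difference of this list was 1.05, and without the 99-week animal it was -0.07.

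**Figure D2:**
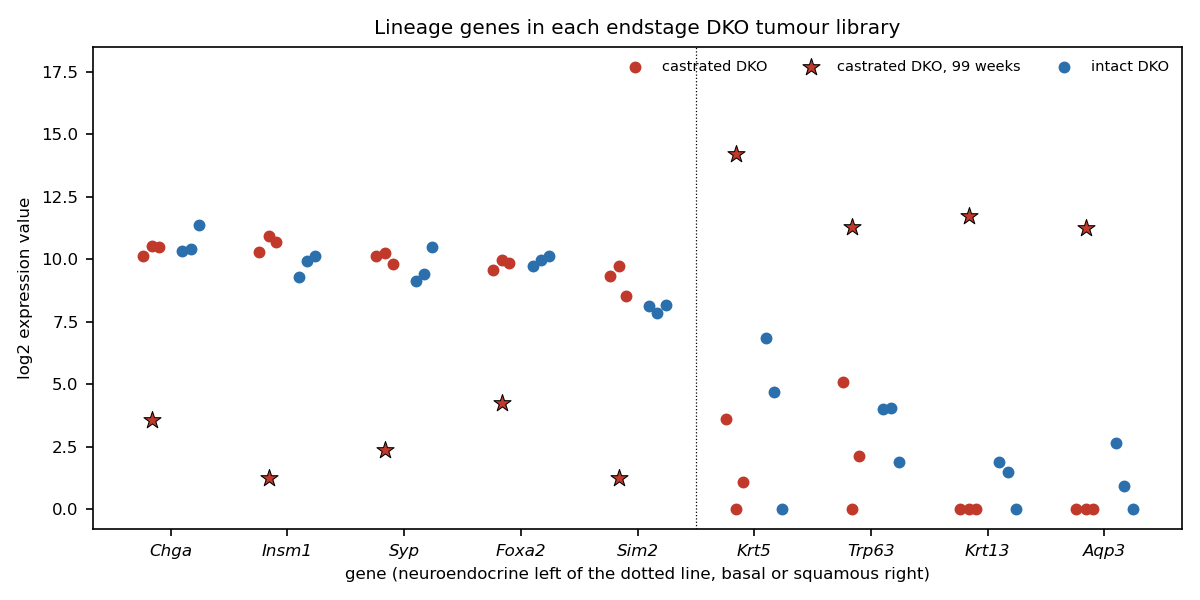
Each point is the log2 value of 1 library, with castrated DKO tumours in red at the left of each gene, the 99-week castrated tumour as a star, and intact DKO tumours in blue at the right. The star is lowest for the 5 neuroendocrine genes, with Chga at 3.59, and highest for the 4 basal or squamous genes, with Krt5 at 14.23.

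Without the 99-week animal, in an alternative added after its values were seen, the 6 remaining libraries alone called 937 genes higher and 669 lower. In that fit 6 of the 38 neuroendocrine genes were higher and 3 were lower. Vgf, a secreted neuropeptide precursor, was higher by 3.99 (SE 0.92, adjusted p = 0.0364), and Srrm4, the neural splicing factor, was higher by 2.23 (SE 0.39, adjusted p = 0.0136). The neuronal RNA-binding protein Elavl4 (-0.84), the Notch antagonist Hes6 (-0.95) and the vesicle fusion protein Snap25 (-1.11) were lower. With the other genotypes in the fit, 1 neuroendocrine gene was called higher and none lower, where 925 of all genes were higher and 808 lower. Vgf passed there at an adjusted p of 0.00782, whereas Srrm4 had 0.0505, Hes6 0.402, Snap25 0.63 and Elavl4 0.72.

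The neurofilament genes Nefl and Nefm were among the largest decreases in castrated tumours. Nefl, the light subunit of the neurofilament, had 0, 0, 0 and 3.84 in castrated tumours, against 12.34, 9.52 and 12.35 in intact tumours. Nefm, the medium subunit, had 1.81, 0, 0 and 1.08 in castrated tumours, against 8.66, 5.01 and 9.26 in intact tumours. The groups did not overlap for either gene, which the choice of the 12 largest changes required. The low values included the 3 castrated tumours with a high neuroendocrine level. The fitted log2 difference was -10.44 for Nefl (SE 2.15), where the adjusted p was 0.000398. For Nefm it was -6.92 (SE 1.87), where the adjusted p was 0.00802. With the 7 libraries alone the adjusted p was 0.00332 for Nefl and 0.0131 for Nefm. Both calls were lost in a fit on recovered reads with limma-voom, and that of Nefm was lost with age as a covariate, without the 84- and 99-week animals and without intact replicate 3. The genes lie beside each other on chromosome 14 of GRCm38, Nefl at 68083863 to 68089095 on the forward strand and Nefm at 68082590 to 68124846 on the reverse strand. The annotated spans overlap, and whether reads were counted by strand is not given in the sources used here.

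Nefl did not follow treatment in the other genotypes. With the pieces of 1 animal averaged, in DKO_EE tumours it averaged 12.80 ± 0.36 in 5 castrated and 9.86 ± 3.06 in 8 intact animals (SD), and in DKO_EP tumours it averaged 6.47 ± 4.05 in 5 castrated and 6.71 ± 2.50 in 3 intact animals. The difference was 2.94 in DKO_EE (adjusted p = 0.248) and -0.24 in DKO_EP (adjusted p = 0.996). The DKO difference minus that of DKO_EE was -13.39 (SE 2.69, adjusted p = 0.0529), which missed the threshold. Intact DKO prostates at 12 weeks had a Nefl level of 5.66 ± 2.55 (SD, n = 4), between those of the endstage DKO groups.

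**Figure D3:**
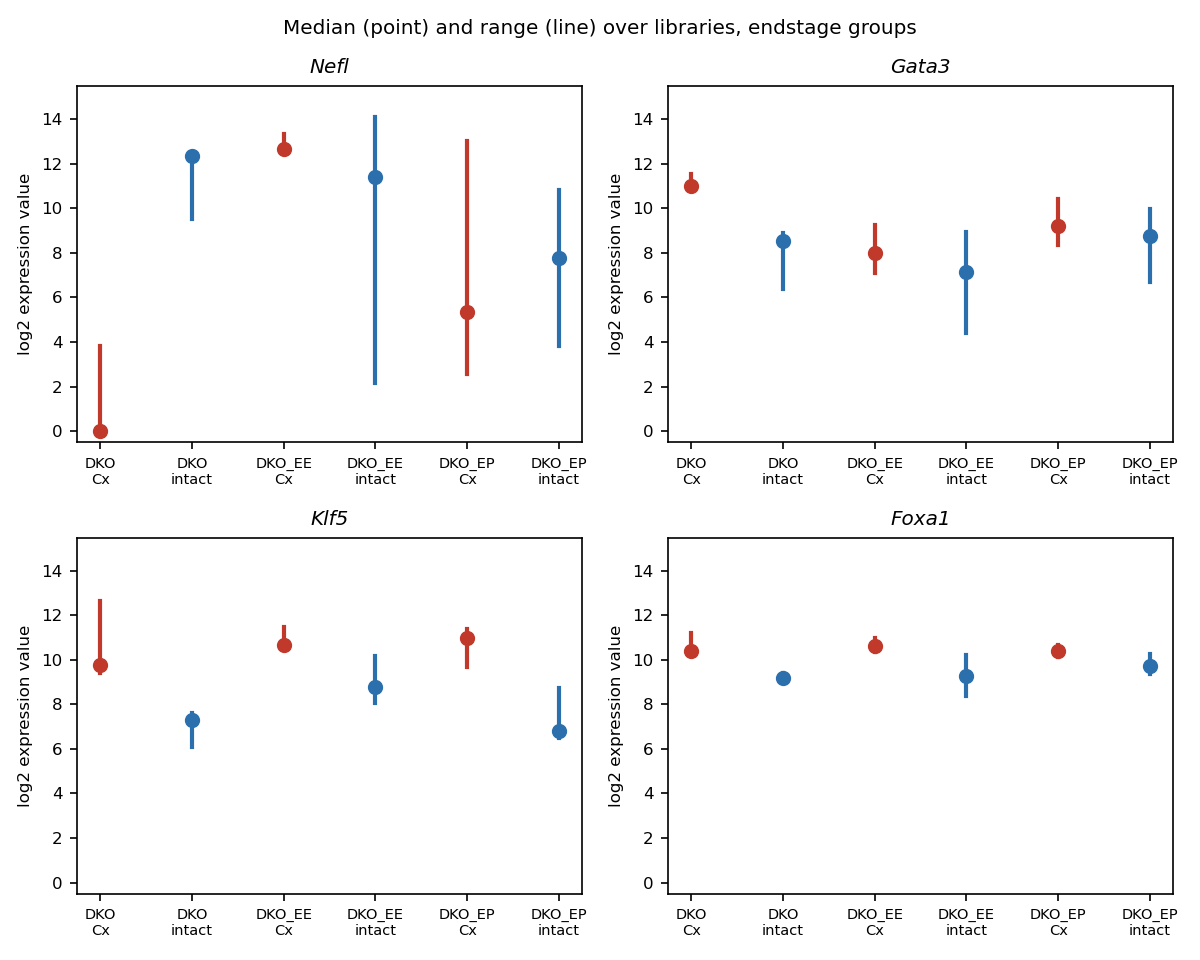
Points are medians and lines are ranges over libraries of the log2 value in the 6 endstage groups, with castrated groups in red at the left of their intact counterpart in blue. Nefl is at 0 to 3.84 in castrated DKO, Gata3 is at 10.90 to 11.53 in castrated DKO, and Klf5 and Foxa1 have a higher median in castrated tumours of each genotype.

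Grm8, Slc38a11 and 5 further genes were also among the 12 with the largest decreases. Grm8, a metabotropic glutamate receptor, had 1.81, 0, 0 and 3.30 in castrated tumours, against 8.64, 7.02 and 6.50 in intact tumours. Slc38a11, of the amino acid transporter family, had 2.25, 0, 1.28 and 2.71 in castrated tumours, against 8.69, 4.20 and 8.35 in intact tumours. For both genes every castrated tumour lay below every intact one, which the choice of the 12 required. Both genes were called with the 7 libraries alone. The difference was -6.11 for Grm8 (SE 1.23) and -5.52 for Slc38a11 (SE 1.06), with an adjusted p of 0.000298 for Grm8 and of 0.000138 for Slc38a11. Cntnap5b (-5.48), Spock3 (-5.14), Pirt (-5.01), Fstl5 (-4.62) and Scn9a (-4.24) also fell in the fit across all groups. Their values in the 99-week tumour were 0 to 1.25, and none of these 5 was called with the 7 libraries alone. Scn9a, a voltage-gated sodium channel, read 8.85, 0, 6.42 and 8.54 in castrated and 10.56, 10.46 and 9.56 in intact tumours. In the list of 32 genes of neuronal cytoskeleton and synapse, Nefl, Nefm and the adhesion protein Nlgn1 fell and the vesicle protein Vamp2 rose (difference 1.18, adjusted p = 0.0248). These were 9.38% of the list lower and 3.12% higher, beside 5.54% and 6.34% of all genes. Nlgn1 and Vamp2 overlapped between the groups and were not called with the 7 libraries alone (adjusted p = 0.428 and 0.200).

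The remaining large decreases were in genes with near-identical copies, whose reads the counting may have split between copies. Dynlt1b, a dynein light chain with copies on the same chromosome, had 4.48, 3.41, 5.76 and 5.14 in castrated tumours, against 9.56, 10.26 and 10.19 in intact tumours. Eno1b, a copy of the glycolytic enolase, had 1.17, 7.54, 9.15 and 1.08 in castrated tumours, against 9.96, 9.95 and 10.14 in intact tumours. Hist1h4m, a histone H4 gene, had 0, 0, 0 and 6.93 in castrated tumours, against 8.28, 7.67 and 7.79 in intact tumours. Of these 3, Dynlt1b was the one also called with the 7 libraries alone. Dynlt1b and Eno1b had log2 differences of -3.64 and -9.03 in DKO_EE and of -4.01 and -8.62 in DKO_EP.

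The epithelial transcription factors Gata3, Foxa1 and Klf5 were higher in castrated tumours. Gata3, a zinc-finger factor of luminal epithelium and of T cells, had 11.10, 10.90, 11.53 and 10.90 in castrated tumours, against 6.36, 8.55 and 8.91 in intact tumours. Foxa1, a forkhead factor that opens chromatin in luminal epithelium, had 10.291, 11.225, 10.478 and 10.154 in castrated tumours, against 9.001, 9.402 and 9.167 in intact tumours. Klf5, a zinc-finger factor of basal and intermediate epithelium, had 9.55, 12.65, 9.41 and 10.004 in castrated tumours, against 7.32, 7.63 and 6.09 in intact tumours. The groups did not overlap for any of the 3 genes. Gata3 was higher by a log2 difference of 3.17 (SE 0.71, adjusted p = 0.00115). Foxa1 was higher by 1.35 (SE 0.30) with an adjusted p of 0.00101, and Klf5 by 3.39 (SE 0.59) with an adjusted p of 3.28e-05. Gata3 and Foxa1 were called with the 7 libraries alone, whereas Klf5 was not (adjusted p = 0.0692). Foxa1 lost its call without the 84- and 99-week animals.

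Gata3 was at a level that other endstage groups did not reach. It lay between 10.90 and 11.53 in castrated DKO tumours, between 7.09 and 9.25 in castrated DKO_EE tumours and between 8.34 and 10.40 in castrated DKO_EP tumours. Intact endstage tumours of DKO_EE lay between 4.40 and 8.96 and those of DKO_EP between 6.71 and 9.98. At 12 weeks, intact DKO prostates averaged 10.04 ± 0.46 for Gata3, 11.52 ± 0.20 for Foxa1 and 10.62 ± 0.38 for Klf5 (SD, n = 4). The castration difference of Gata3 was 1.30 in DKO_EE and 0.81 in DKO_EP, and the DKO difference minus these was not called (adjusted p = 0.499 and 0.887).

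The promoters of Gata3 and Foxa1, which rose together, are shown with that of the class I gene H2-D1, which is described further on. Each runs from 250 bases before to 50 bases after the start of transcription in the RefSeq table for GRCm38.p6, and 69 of the 103 named genes had an entry there. Capitals mark matches, on either strand, to the steroid response half-site AGAACA, the forkhead letters GTAAACA, the letters AGATAA of GATA factors, the NF-kB core GGATTCC or the interferon regulatory factor letters GAAANNGAA.
Gata3, chr2:9878551-9878850, reverse strand: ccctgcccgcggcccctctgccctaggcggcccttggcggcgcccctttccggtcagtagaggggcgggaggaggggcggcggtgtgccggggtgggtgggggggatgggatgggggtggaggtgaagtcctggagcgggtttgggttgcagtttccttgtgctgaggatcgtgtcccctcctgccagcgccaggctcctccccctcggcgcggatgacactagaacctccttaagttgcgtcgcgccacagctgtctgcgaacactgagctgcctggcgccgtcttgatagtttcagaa
Foxa1, chr12:57546062-57546361, reverse strand: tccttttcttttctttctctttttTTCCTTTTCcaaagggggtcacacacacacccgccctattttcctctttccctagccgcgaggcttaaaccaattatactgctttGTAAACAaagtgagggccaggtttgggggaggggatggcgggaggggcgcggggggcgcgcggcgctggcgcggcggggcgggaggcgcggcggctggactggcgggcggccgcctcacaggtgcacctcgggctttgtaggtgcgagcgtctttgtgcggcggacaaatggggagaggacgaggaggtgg
H2-D1, chr17:35262844-35263143, forward strand: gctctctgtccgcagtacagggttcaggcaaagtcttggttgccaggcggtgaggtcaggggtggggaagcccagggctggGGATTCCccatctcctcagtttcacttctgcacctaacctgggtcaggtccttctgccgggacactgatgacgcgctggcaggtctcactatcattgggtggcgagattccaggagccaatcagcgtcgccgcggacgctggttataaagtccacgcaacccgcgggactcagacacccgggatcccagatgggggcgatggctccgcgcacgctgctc
The Foxa1 promoter held the forkhead letters at bases 110 to 116 and the interferon regulatory factor letters, on the opposite strand, at bases 25 to 33. The H2-D1 promoter held the NF-kB letters at bases 82 to 88. The Gata3 window, and that of the class I gene Tapbp, which is not printed, held none of the 5 motifs. Sites spelled with other letters were not searched for, so an unmarked stretch can still hold one. Among all 32851 promoters, 19% held AGAACA, 3.65% held GTAAACA, 11.2% held AGATAA, 3.79% held GGATTCC and 8.56% held GAAANNGAA. No 2 of the marked matches overlapped.

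Among 49 neuronal and lineage transcription factors, 5 were higher (10.2%, beside 6.34% of all genes) and none was lower. The list median was 1.35. Without the 99-week animal 7 were higher, where 925 of all genes were higher. The 5 were Gata3, Gata2, Foxf1, Pax6 and Sox4. Sox4, a factor of progenitor cells, read 11.64, 10.86, 11.22 and 11.56 in castrated and 10.05, 10.36 and 9.62 in intact tumours (difference 1.31, SE 0.38, adjusted p = 0.0154). Pax6, an eye and endocrine factor, was carried by 1 tumour, with 2.86, 0, 7.54 and 3.30 in castrated and 0, 0 and 0.92 in intact tumours. Foxf1, a factor of gut and lung mesenchyme, read 5.36, 6.31, 7.33 and 4.90 in castrated and 3.02, 3.79 and 3.03 in intact tumours. Sox4 lost its call without intact replicate 3, and Pax6 and Foxf1 were not called with the 7 libraries alone.

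Of the 12 largest increases, several had a like size in the other genotypes. Eif4ebp2, an inhibitor of cap-dependent translation, read 11.10, 11.71, 11.33 and 10.93 in castrated and 7.61, 7.72 and 8.06 in intact tumours. It was higher by 3.47 in DKO (SE 0.21, adjusted p = 9.81e-17), and by 3.05 in DKO_EE and 2.95 in DKO_EP tumours. Mia2, a protein of cargo export from the endoplasmic reticulum, had a difference of 5.75 in DKO mice, against 5.78 in DKO_EE mice and 7.08 in DKO_EP mice. The non-coding RNA AI506816 was higher by 6.32, 5.63 and 4.72 in the same 3 genotypes. The beta-globin gene Hbb-bs was higher by 5.998, 6.27 and 5.78, with reads that can be shared with its copy Hbb-bt. Fgf2, a growth factor of stroma and of tumour cells, read 8.09, 5.77, 5.90 and 6.97 in castrated DKO and 2.85, 4.13 and 1.48 in intact DKO tumours, with a difference of 3.86, beside 3.67 for DKO_EE and 4.69 for DKO_EP. For these 5 genes the groups did not overlap in DKO, which the choice of the 12 largest changes required. Handling and castration cannot be told apart for them.

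Other large increases were smaller in the genotypes with Ezh2 deletions. Slc25a48, of the mitochondrial carrier family, read 6.30, 7.07, 6.89 and 6.79 in castrated and 0, 3.06 and 0 in intact DKO tumours. It was higher by 5.74 (SE 1.19, adjusted p = 0.000427), beside differences of 1.73 for DKO_EE and 2.03 for DKO_EP. Tuba8, an alpha-tubulin, read 6.53, 6.56, 7.95 and 5.90 in castrated and 2.45, 3.06 and 3.76 in intact DKO tumours, with a difference of 3.65, beside -0.37 for DKO_EE and 0.25 for DKO_EP. Hivep3, a zinc-finger factor that binds kappa-B-like sites, read 8.64, 9.73, 9.21 and 8.04 in castrated and 5.54, 5.63 and 4.70 in intact DKO tumours, with a difference of 3.62, beside 1.48 for DKO_EE and 1.68 for DKO_EP. The DKO difference minus that of DKO_EE or DKO_EP was not called for any of these 3 genes. The remaining 4 of the 12 were Gpr27 (4.06), Naip6 (3.73), Pygo1 (3.59) and Olfr1372-ps1 (3.57), of which Pygo1 was not called with the 7 libraries alone and Naip6 and Olfr1372-ps1 belong to families of close copies.

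Genes that respond to androgen gave 1 call between castrated and intact endstage tumours. Of 33 such genes, Rab4a, a small GTPase of endosome recycling, was called higher (difference 2.50, adjusted p = 0.00647, lost with the 7 libraries alone), and none was lower. This was 3.03% of the list, beside 6.34% of all genes. The list median was 0.26. Of 24 genes for steroid receptors, steroid synthesis and their cofactors, 3 were higher (12.5%) and none was lower, and Foxa1 was 1 of the 3. Nr3c2, the mineralocorticoid receptor, read 7.07, 9.27, 8.58 and 5.60 in castrated and 6.46, 5.66 and 5.09 in intact tumours (difference 1.89, SE 0.52, adjusted p = 0.00952). Ncoa3, a coactivator of nuclear receptors, read 9.99, 10.72, 10.10 and 9.97 in castrated and 9.68, 9.79 and 9.74 in intact tumours (difference 0.45, SE 0.15, adjusted p = 0.0406). The groups overlapped for Nr3c2 and not for Ncoa3, and neither gene was called with the 7 libraries alone. Of 21 luminal genes, Foxa1 and the adhesion protein Cdh1 were higher (9.52%) and none was lower. Cdh1 read 12.48, 14.06, 12.59 and 12.05 in castrated and 11.59, 11.91 and 11.09 in intact tumours (difference 1.26, adjusted p = 0.0129), and it was not called with the 7 libraries alone (adjusted p = 0.221).

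Genes of cell division were lower in castrated tumours, most of all in the 99-week tumour. Of 30 proliferation genes 13 fell and none rose, where 5.54% of all genes fell, and the list median was -1.07. The list averaged 9.43, 6.75, 9.66 and 9.56 in castrated tumours and 9.94, 9.90 and 10.17 in intact tumours. Nek2, a kinase of centrosome separation, had 7.05, 4.83, 8.40 and 7.59 in castrated tumours, against 9.63, 9.49 and 10.25 in intact tumours (difference -2.82, SE 0.47, adjusted p = 1.26e-05). Kif11, the spindle motor, had 9.86, 6.58, 10.27 and 10.08 in castrated tumours, against 11.15, 10.98 and 11.60 in intact tumours (difference -2.05, SE 0.45, adjusted p = 0.000974). Neither gene overlapped between the groups. Without the 99-week animal, 2 of the 30 fell in the fit across all groups and 4 in the fit of the 6 DKO libraries alone. The median was -0.41, and of all genes 808 and 669 fell in these fits. With the 7 libraries alone none was called. Of 34 E2F target and replication genes, 8 fell (23.5%, beside 5.54% of all genes) and none rose. Tyms, the thymidylate synthase, read 9.18, 7.58, 9.45 and 9.28 in castrated and 10.13, 10.06 and 10.02 in intact tumours (difference -1.20, adjusted p = 0.000298). Pcna, the replication clamp, read 10.62, 9.51, 9.81 and 11.01 in castrated and 11.53, 11.55 and 11.65 in intact tumours (difference -1.34, adjusted p = 0.000213). Without the 99-week animal 2 of the 34 fell in either fit, and with the 7 libraries alone none was called. With age as a covariate 1 of the 30 and 0 of the 34 fell, where 513 of all genes fell. The list medians of proliferation were -0.16 in DKO_EE and 0.02 in DKO_EP. Nek2 was called lower in both, at -1.67 (adjusted p = 0.000345) and -1.64 (adjusted p = 0.0101). Tyms was also called lower in both, at -0.59 (adjusted p = 0.017) and -0.82 (adjusted p = 0.0136). Kif11 (-0.78 and -0.53) and Pcna (-0.54 and -0.70) were called in neither.

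The class I antigen presentation genes H2-D1, Tapbp and Tap2 were higher in castrated tumours. H2-D1, a classical class I heavy chain, had 13.29, 12.67, 12.32 and 13.42 in castrated tumours, against 10.74, 10.89 and 10.76 in intact tumours (difference 2.13, SE 0.41, adjusted p = 0.000158). Tapbp, the tapasin that loads peptides onto class I, had 11.38, 11.39, 11.54 and 11.40 in castrated tumours, against 9.41, 10.05 and 9.82 in intact tumours (difference 1.67, SE 0.26, adjusted p = 5.72e-06). Tap2, a subunit of the peptide transporter, had 8.96, 8.73, 8.89 and 9.06 in castrated tumours, against 7.52, 7.76 and 7.97 in intact tumours (difference 1.16, SE 0.38, adjusted p = 0.0335). Castrated tumours lay above intact ones without overlap for the 3 genes, and all were called with the 7 libraries alone. Tap2 lost its call under 9 of 17 alternatives (highest adjusted p = 0.132), while H2-D1 and Tapbp lost theirs under none. Reads of H2-D1 can be shared with other class I heavy chains. The 3 were the ones called among the 15 list members tested (20.0%, beside 6.34% of all genes), none of the 15 was lower, and the list median was 0.74, beside -0.16 for DKO_EE and -0.14 for DKO_EP. A further 3 members, H2-Q6, H2-Q7 and H2-T22, were among the genes set aside. H2-K1 read 13.31, 12.17, 11.89 and 13.32 in castrated and 11.48, 11.71 and 11.15 in intact tumours and was not called. Tapbp had a difference of 0.41 in DKO_EE and 0.28 in DKO_EP, and the DKO difference minus these was not called (adjusted p = 0.232 and 0.408).

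Interferon response genes varied by animal. Of 34, the ubiquitin ligase Dtx3l was higher and Ifi27 was lower. Each was 2.94% of the list, beside 6.34% higher and 5.54% lower of all genes. The list averaged 9.30, 8.42, 7.50 and 9.45 in castrated and 7.66, 8.28 and 8.05 in intact tumours, so the 84-week castrated tumour was lowest and the 39- and 50-week ones were highest. Without the 84- and 99-week animals 8 of the 34 were higher and none was lower. Of all 16376 genes, that fit called 635 higher and 574 lower. Leaving out the 84-week tumour alone gave 7 higher and 1 lower, where 931 of all genes were higher and 926 lower.

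Markers of immune and stromal cells gave no calls. None was called among 18 macrophage and myeloid genes, 11 neutrophil genes, 23 T and NK cell genes, 11 B and plasma cell genes and 12 class II genes. The same held for 24 fibroblast and collagen genes, 15 endothelial genes, 16 smooth muscle genes, 17 skeletal muscle genes and 16 adipocyte genes. The macrophage list had a median of -0.92, and 9 of its 18 genes did not overlap between the groups, beside 20.6% of all genes tested. It averaged 7.97, 8.11, 7.07 and 8.10 in castrated and 8.64, 8.71 and 8.90 in intact tumours. With the 99-week animal left out, the 6 remaining DKO libraries alone called 3 of the 18 lower, where 669 of all genes were lower. The 3 were the integrin Itgam (-3.03), the lipid receptor Trem2 (-1.54) and its adaptor Tyrobp (-1.57). With the other genotypes in that fit Itgam was called (adjusted p = 0.017), and Tyrobp (0.0518) and Trem2 (0.185) were not. Adipocyte genes averaged 2.52 to 5.78 in castrated and 2.65 to 7.89 in intact tumours.

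Polycomb genes gave calls in both directions. Polycomb complexes silence developmental genes through methylation and ubiquitination of histones, and Ezh2 is their methyltransferase. Of 30 genes 7 were higher and 2 were lower, beside 6.34% and 5.54% of all genes tested, with a list median of 0.11. Without the 99-week animal 6 were higher and none was lower, where 925 of all genes were higher and 808 lower. Kdm6b, the demethylase that removes the Ezh2 mark, had 10.32, 10.71, 10.45 and 10.22 in castrated tumours, against 8.31, 7.79 and 8.09 in intact tumours (difference 2.37, SE 0.31, adjusted p = 1.63e-07). Pcgf2, a ring-finger subunit of the first complex, had 7.86, 8.19, 8.43 and 7.85 in castrated tumours, against 6.73, 6.02 and 6.75 in intact tumours (difference 1.58, SE 0.24, adjusted p = 2.11e-06). Both were free of overlap and were called with the 7 libraries alone, which called no other member. Pcgf5 (1.62) and the chromodomain subunit Cbx6 (1.27) were also higher across all groups. Aebp2, Cbx8 and Pcgf3 were the remaining increases, and Mtf2 (-0.54) and Rybp (-1.06) were the decreases. Ezh2 itself had 9.62, 8.43, 9.71 and 9.69 in castrated tumours, against 9.88, 9.48 and 9.47 in intact tumours and was not called. Kdm6b was also higher in DKO_EE by 1.75 and in DKO_EP by 1.62.

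Signalling pathways held few calls each, with 5.56% of the Wnt list, 9.38% of the TGF-beta and BMP list, 10% of the Notch list and 9.68% of the PI3K list higher, beside 6.34% of all genes. In the Wnt list of 36, the receptor Fzd8 (difference 2.71, adjusted p = 0.0117) and the coreceptor Lrp5 (1.03, adjusted p = 0.00747) were higher and none was lower. Fzd8 read 6.21, 7.03, 6.71 and 5.98 in castrated and 4.16, 4.13 and 3.03 in intact tumours, without overlap. In the TGF-beta and BMP list of 32, the ligand Tgfb1 (1.72, adjusted p = 0.0128), the inhibitor Smad7 (1.41) and the receptor Bmpr1a (0.35) were higher and none was lower. Tgfb1 read 7.79, 8.77, 8.73 and 8.04 in castrated and 6.75, 6.30 and 6.77 in intact tumours. Fzd8, Lrp5 and Tgfb1 were called with the 7 libraries alone, and Smad7 and Bmpr1a were not. With age as a covariate no member of either list was called. Over 17 alternatives Fzd8 and Tgfb1 each lost the call under 3 and Lrp5 under 2. In the Notch list of 20, the target Hes1 (1.72) and the inhibitor Numb (0.56) were higher. In the PI3K and receptor kinase list of 31, the receptors Erbb3 (1.84) and Insr (0.63) and the adaptor Irs2 (1.54) were higher and none was lower. None of the Notch and PI3K calls held with the 7 libraries alone. Erbb3 read 7.94, 10.96, 9.79 and 7.48 in castrated and 7.23, 7.13 and 7.26 in intact tumours, so the 84- and 99-week tumours carried most of its increase.

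Among stress, metabolic, damage and other lists the share called differed, beside 6.34% higher and 5.54% lower of all genes. Called higher were 12.5% of surface antigens, 8.7% of cholesterol and lipid genes and 5.88% of stress genes. Of Trp53 targets 3.57% were called higher and 3.57% lower, and of Hox genes 2.86% were higher. Called lower were 11.8% of stress genes and 8.7% of hypoxia and glycolysis genes. Bax, the pore-forming cell death protein and a Trp53 target, read 7.31, 7.61, 7.88 and 7.62 in castrated and 8.84, 8.72 and 8.22 in intact tumours (difference -0.99, SE 0.19, adjusted p = 0.000197). Sesn2, a nutrient sensor and another of the 28 Trp53 targets, was higher (2.07, adjusted p = 0.000507). Of 17 stress and immediate early genes, Egr1 was higher (2.14, adjusted p = 0.0341), and its relative Egr2 (-4.21, adjusted p = 0.00039) and the chaperone Hsp90aa1 (-0.99) were lower. Egr2 read 0, 2.98, 1.28 and 0 in castrated and 5.26, 6.32 and 4.24 in intact tumours. Of 23 hypoxia and glycolysis genes, the enzymes Pgk1 (-1.46, adjusted p = 0.00172) and Aldoc (-1.88) were lower and none was higher. Of 23 cholesterol and lipid genes, the desaturase Sc5d (1.32, adjusted p = 0.000723) and the regulator Srebf2 (0.94) were higher and none was lower. Of 16 surface antigens pursued as drug targets, the mucin Muc1 (1.89) and the checkpoint protein Cd276 (1.19) were higher. Of 35 Hox genes Hoxa13 was higher (2.89, adjusted p = 0.0482), with overlapping groups. With the 7 libraries alone the calls of Sesn2, Hsp90aa1, Aldoc, Srebf2, Muc1, Cd276 and Hoxa13 ended, and over 17 alternatives Egr1 lost its call under 7, Hsp90aa1 under 11 and Hoxa13 under 12. Trp53 read 8.46, 8.99, 8.89 and 8.37 in castrated and 7.97, 7.97 and 7.87 in intact tumours and missed the threshold (adjusted p = 0.0604). The deleted alleles are not in the labels, and Rb1 (7.88 to 9.11 in castrated and 8.62 to 9.27 in intact tumours) was not called. Whole-gene values do not check a deletion of part of a gene.

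**Figure D4:**
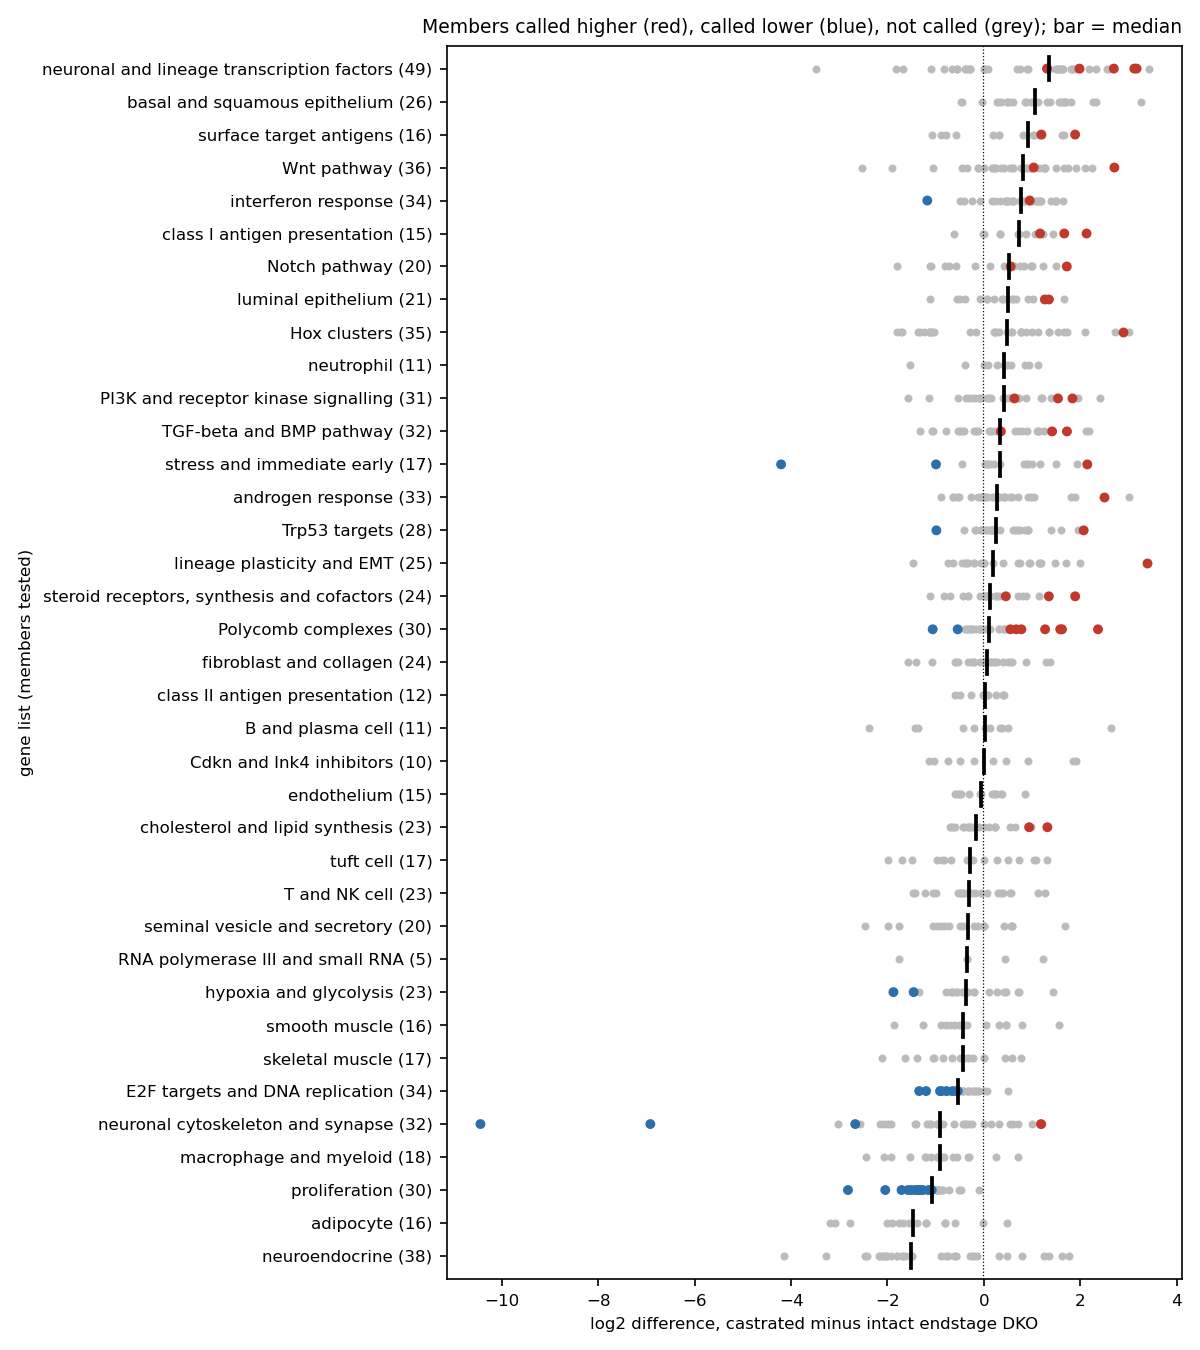
Each row is a list with its number of tested genes, each point is a gene placed at its log2 difference, castrated minus intact endstage DKO, and black bars are list medians. Proliferation has 13 blue genes called lower around a median of -1.07, the neuroendocrine list has none called at a median of -1.51, and Nefl and Nefm stand at the far left of the neuronal cytoskeleton row.

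The castration differences of the other genotypes come from other animals, and their calls were set beside those of DKO. The calls are not independent, since all come from 1 fit that shares the estimate of the spread of each gene. Among all 16376 genes not set aside, 1253 were called higher and 1117 lower in DKO_EE, and 681 higher and 579 lower in DKO_EP. Of the 1038 genes higher in castrated DKO tumours, 581 were also higher in castrated DKO_EE tumours, which is 56.0% of the DKO genes and 46.4% of the 1253 DKO_EE genes. Of the 907 lower genes, 503 were also lower in DKO_EE, 55.5% and 45.0% of the 1117. In DKO_EP the shared genes were 438 higher, 42.2% of the DKO genes and 64.3% of the 681, and 370 lower, 40.8% and 63.9% of the 579. The gene model 1700001G17Rik was called lower in DKO (-1.72) and higher in DKO_EE (1.28), which was noticed after its values were seen, and no gene was opposite in DKO_EP. Handling and castration cannot be told apart in these shared calls.

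Few genes were called in a test of whether the castration difference itself differed between genotypes. The groups held 3 to 8 animals, so a gene not called was not shown to be alike in the genotypes. Against DKO_EE there were 2 genes (0.0122% of those tested), and 1599 had an unadjusted p under 0.05. Against DKO_EP there were 4 genes (0.0244%), and 862 had an unadjusted p under 0.05. Cfap69, a protein of the sperm and ciliary flagellum, fell in DKO, where it had 3.46, 4.61, 1.95 and 2.44 in castrated tumours, against 5.33, 5.55 and 5.62 in intact tumours. It averaged 5.68 ± 0.67 in 5 castrated and 4.77 ± 0.48 in 8 intact DKO_EE animals, and 6.05 ± 0.50 in 5 castrated and 4.92 ± 0.95 in 3 intact DKO_EP animals (SD). Its difference was -2.38 in DKO (adjusted p = 0.111 with the 7 libraries alone), and the DKO difference minus that of DKO_EE was -3.28 (adjusted p = 0.0445) and minus that of DKO_EP -3.51 (adjusted p = 0.0417). Hist1h4m gave -6.20 against DKO_EE (adjusted p = 0.00803) and -5.79 against DKO_EP (adjusted p = 0.0417). Traf3, a signalling adaptor of the TNF receptor family, read 9.59, 9.73, 9.79 and 9.77 in castrated and 8.31, 8.42 and 8.33 in intact DKO tumours, without overlap. Its difference was 1.37 in DKO (SE 0.17, adjusted p = 7.54e-08) and 0.09 in DKO_EP, and these differed by 1.27 (adjusted p = 0.0417). The fourth was Lars2, with 8.24 ± 0.28 in castrated and 10.004 ± 0.707 in intact DKO tumours, against 8.22 ± 0.23 in castrated and 20.48 ± 0.25 in intact DKO_EP animals (SD, n = 5 and 3). The Lars2 difference of DKO minus that of DKO_EP was 10.49 (adjusted p = 0.00993), and Lars2 held 14.2% to 21.6% of all reads in intact DKO_EP libraries. In intact endstage DKO_EE libraries its share ran from 0.00853% to 35.3%. Pieces of 1 such mouse held 0.00853% and 18.95%, so the level varied within an animal.

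**Figure D5:**
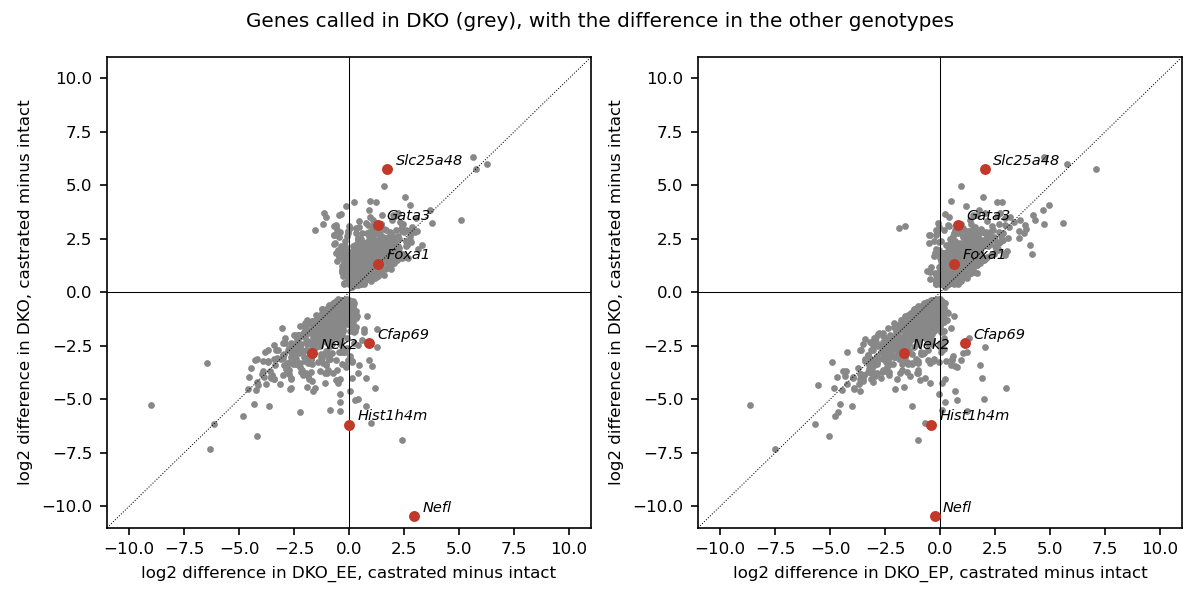
Each grey point is a gene called in DKO, at its log2 difference in DKO on the vertical axis and in DKO_EE (left) or DKO_EP (right) on the horizontal axis, with equal differences on the dotted line. Most points lie in the quadrants of equal sign, and Nefl, at -10.44 in DKO, lies at 2.94 in DKO_EE and at -0.24 in DKO_EP.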

How the data were processed

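RNA of prostate tumour tissue was isolated with miRNeasy columns, and RiboErase depletion and RNA HyperPrep reagents gave the libraries, per the labels' protocols. FastQC, STAR, RSEM, limma and DESeq2 are named with the builds GRCm38 and mm10 per the submitters' processing notes, without roles. The authors deposited 1 table of 16772 genes whose values are in the unit log2, of a normalized count plus 1. With logarithm and 1 removed, 100% of values up to 1000 reads lay within 0.05 of a whole read, which gave the depths. There were 2 columns of no sample, which were not used.

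Pieces of 1 animal were averaged, and 11 groups were fitted together with limma 3.58.1 in R 4.3.3 (eBayes with a variance trend, 37 residual degrees of freedom) on the log2 values. Contrasts were castrated minus intact in each genotype, and the differences between these. Benjamini-Hochberg adjustment ran over all genes, with a threshold of 0.05. Age was compared by an exact permutation test (scipy 1.17.1).

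Named genes were the 12 largest changes in each direction whose libraries did not overlap (without the lowest 25% by mean value, unnamed gene models and receptor segments), up to 4 called members of each list, fixed genes, and called interaction genes (up to 6 in each direction). Other genes were chosen after their values were seen. The members and lists were chosen with earlier results of these data known. Some genes are not reported here and were left out of the lists, though not of the fit. Positions are from GENCODE M21. Alternatives changed the libraries fitted, the filter, the offset of 8, the normalization, sample weights, the model (limma-voom on recovered reads) and age. A fit of the DKO libraries without the 99-week animal was chosen after seeing the data. Counting error adds to the spread of genes with few reads.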

Additional observations from a re-analysis of the deposited data

Results flagged for a closer look

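Among the 4 castrated DKO tumours, a single value stood far from the other 3 for 19 of the named genes, by the distance to the nearest value relative to the whole range. Chance does this in about 1 of 20 groups. Over all 16376 genes not set aside, the 99-week tumour was the distant one as the high value for 980 and as the low value for 1023. Each other castrated tumour was the distant high value for 108 to 156 genes and the distant low value for 34 to 146. A distant value was thus not particular to the named genes. In 15 of the 19 the distant tumour was that of the 99-week animal. There it was low for the neuroendocrine genes Chga (3.59), Foxa2 (4.24), Insm1 (1.25), Sim2 (1.25), Syp (2.36) and Mycn (3.21). It was also low for the cell division genes Ccnb1 (6.29), Kif11 (6.58), Mki67 (10.8) and Tyms (7.58), for Ezh2 (8.43) and Rb1 (7.88) and for Gpr27 (6.31). Mycl was high there at 9.86, and Neurod1, a neurogenic factor, was at 1.25 there and at 0 in the other 3. The 50-week animal was the distant one for Nefl (3.84) and Hist1h4m (6.93), the 39-week animal for Lars2 (8.66), and the 84-week animal for Tapbp (11.54).

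The castration difference was not the same in DKO and another genotype, by the test of the difference, for 4 genes. Cfap69 had a DKO difference lower by a log2 value of -3.28 than DKO_EE and of -3.51 than DKO_EP. Hist1h4m gave -6.2 against DKO_EE and -5.79 against DKO_EP. Lars2 gave 10.49 and Traf3 gave 1.27 against DKO_EP.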

How the results depend on the processing

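The counts of 1038 genes higher and 907 lower in castrated tumours depended most on which libraries set the spread and on how they were weighted. With the 7 DKO libraries alone 373 were higher and 256 lower, with array weights 1644 and 1640, with age as a covariate 573 and 513, and without the 84- and 99-week animals 635 and 574. With limma-voom on recovered reads 1592 were lower and 734 higher, so that 31.6% of calls were higher, where the fit on log2 values gave 53.4%. In that fit the median of all genes was -0.13, and what moved it was not tested. Leaving out 1 library at a time gave 689 to 1100 higher and 568 to 1003 lower, with both lowest values without intact replicate 3.

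The genes whose difference was not the same as in DKO_EE numbered 2. They numbered 1 with the 6 endstage groups alone, 4 without the lowest 25% of genes, 1 with the offset raised, 26 with array weights, 0 with age as a covariate, 0 without the 84- and 99-week animals, and 0 to 3 with 1 library left out. Those against DKO_EP numbered 4, and 2, 2, 28, 0 and 2 with the 6 groups alone, the offset raised, array weights, age as a covariate and without both old animals, and 0 to 4 with 1 library left out. The cause of these moves was not tested.

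Of 79 named genes that were called, 23 were called under every alternative run and 56 lost the call under some. No paired analysis was possible because the castrated and intact libraries came from different mice. Depth limits genes with few reads, since a library with 1 or a few reads differs little from 0.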

Other observations

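Genes of the sex chromosomes varied among the castrated DKO animals, and were looked at after their values were seen. Uty, on the Y chromosome, read 8.20, 9.64, 4.96 and 8.10 in castrated tumours of 39, 99, 84 and 50 weeks and 9.42, 9.30 and 9.52 in intact tumours, and it was lower in castrated tumours by a log2 difference of -1.69 (adjusted p = 0.0114). Ddx3y, its neighbour in the male-specific region, read 8.37, 9.66, 6.42 and 8.17 in castrated and 9.35, 9.32 and 9.71 in intact tumours. Both were lowest in the 84-week animal. Xist, the RNA that coats an inactive X chromosome, read 10.27, 4.24, 3.27 and 4.60 in castrated and 2.86, 1.50 and 3.66 in intact tumours, and the 39-week castrated animal was the high one.

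Some transcription factors of other organs were read in castrated tumours. Nkx2-2, a factor of brain and pancreas, was at 4.96 in the 84-week castrated tumour and at 0 in the other 3 castrated and in the 3 intact tumours. Pou4f1, a factor of sensory neurons, read 8.20, 0, 8.86 and 8.30 in castrated and 5.69, 4.20 and 3.66 in intact tumours. Foxd1, a factor of kidney stroma, read 7.64, 0, 8.71 and 6.19 in castrated and 2.19, 4.46 and 0 in intact tumours. Neither was called with all 7 libraries or across all groups while the 99-week animal was included. In the DKO libraries less the 99-week animal, Pou4f1 was higher by 3.93 (SE 0.54, adjusted p = 0.00505) and Foxd1 by 5.29 (SE 1.19, adjusted p = 0.0334). With the other genotypes in that fit, the adjusted p was 0.000129 for Pou4f1 and 0.000636 for Foxd1.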
